A study of Mus musculus with 8 samples.

Results

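Nuclear receptors are transcription factors that many small, fat-soluble molecules switch on or off, and coregulators are the partner proteins through which they raise or lower transcription. The set described here holds 38 such genes, chosen by name, 7 of them coregulators and the rest receptors, out of 30214 gene names on the array. All 38 had a probe, and 32 gave signal on enough arrays to be tested. The signal came from the base of the jejunal crypt, the gland of the small intestine that houses stem cells and Paneth cells, in 4 fasted and 4 fed mice given the DNA-damaging drug etoposide.

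Every mouse was heterozygous for a reporter allele, written Lgr5EGFP-IRES-CreERT2/+ in the treatment text and Lgr5EGFP-IRES-CreER2/+ in the strain field. The mice were 4 to 6 weeks old and were labelled as 2 males and 2 females in each group. The fasted group went without food for 24 h and the fed group did not. All 8 then received etoposide at 80 mg/kg by tail vein, were caged singly with moistened pellets, and were sampled 3 h later. Because food was returned after the injection, an effect of the fast and an effect of eating again cannot be told apart. No mouse went without etoposide, so a response to the drug cannot be told apart in any value here.

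A typical nuclear receptor carries a DNA-binding domain that reads short sequence elements and a ligand-binding domain that changes shape when a hormone, lipid, bile acid or drug binds. Many of them bind DNA as a pair with a retinoid X receptor. Ligand exchanges a corepressor such as NCOR1 for coactivators of the NCOA family, while PGC-1 proteins bring in further coactivators and are best known for driving mitochondrial and fasting programmes. In the small intestine the PPARs respond to fatty acids, LXR to oxysterols, FXR to bile acids, PXR and CAR to foreign chemicals and the retinoic acid receptors to a product of vitamin A.

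Each mouse gave 1 array. A value below is the log2 of a probe's processed signal minus the log2 of the signal at the 75th percentile of the same array, so 0 is the level of that percentile and each step of 1 is a doubling. A difference is the limma estimate of fasted minus fed with labelled sex in the model, and its standard error is written SE. The brightest probe stood for each gene, and since probes differ in how well they bind, a value is compared between arrays and not between genes. The fasted arrays had 60.9% ± 5.26 (SD, n = 4) of probes well above background and the fed arrays 58.3% ± 4.70 (SD, n = 4). Slides held 1 fasted and 1 fed array in 3 cases, namely fasted 1 with fed 1, fasted 2 with fed 3, and fasted 4 with fed 4. Fasted array 3 was the only one scanned on the later day and was the least like the rest, with correlations across all probes of 0.904 to 0.950. Fed array 4, labelled female, lacked Xist above background and had the Y-linked Eif2s3y, so its sex label is in doubt. Fed array 1, labelled male, had neither gene above background, so its label could not be checked. The crypt label was borne out in part. Of the Paneth markers measured, 8 of 8 were well above background on every array, and so were 8 of 10 stem cell markers, whereas Lgr5 and Cdk6 were above background on none. Having 4 arrays a group limits the precision of every difference.

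Across the receptor and coregulator genes no difference passed the test. In limma with Benjamini-Hochberg adjustment 0 of 32 tested members had an adjusted p under 0.05, as did 0 of all 19452 genes tested (0%), and members' adjusted p ran from 0.787 to 0.995. At an unadjusted p under 0.05 there were 5 members of 32, against 5.97% of all genes. All 5 read higher in fasted crypts, a direction and threshold met by 3.95% of all genes, and 0 read lower at that threshold, where 2.02% of all genes did. They were Ncoa1, Nr1h3, Rara, Ppargc1a and Nr1i2. The count was 3 without fasted array 2 (beside 5.44% of all genes) and 3 without fed array 4 (5.23%). It was 3 under median centring (4.60%) and 3 under normexp with quantile normalization (5.92%). Other fits added members on the fed side. Without fasted array 4, 2 of 6 read lower in fasted crypts (Nr0b2 and Nr3c2), where 10.6% of all genes met the threshold in either direction. With slide as a block it was 1 of 8 (Rarb), beside 13.0%. In 3 of the 5 members named first, Ncoa1, Rara and Nr1i2, every fasted array lay above every fed array, as in 2.98% of all genes. In 0 members did every fasted array lie below, as in 1.96%. Counted in either direction, the groups were apart in those 3 members and in 4.95% of all genes. By sign alone 24 of 32 tested members were higher in fasted crypts, against 44.5% of all genes, and the median difference was 0.19 against -0.06 over all genes.

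**Figure D1:**
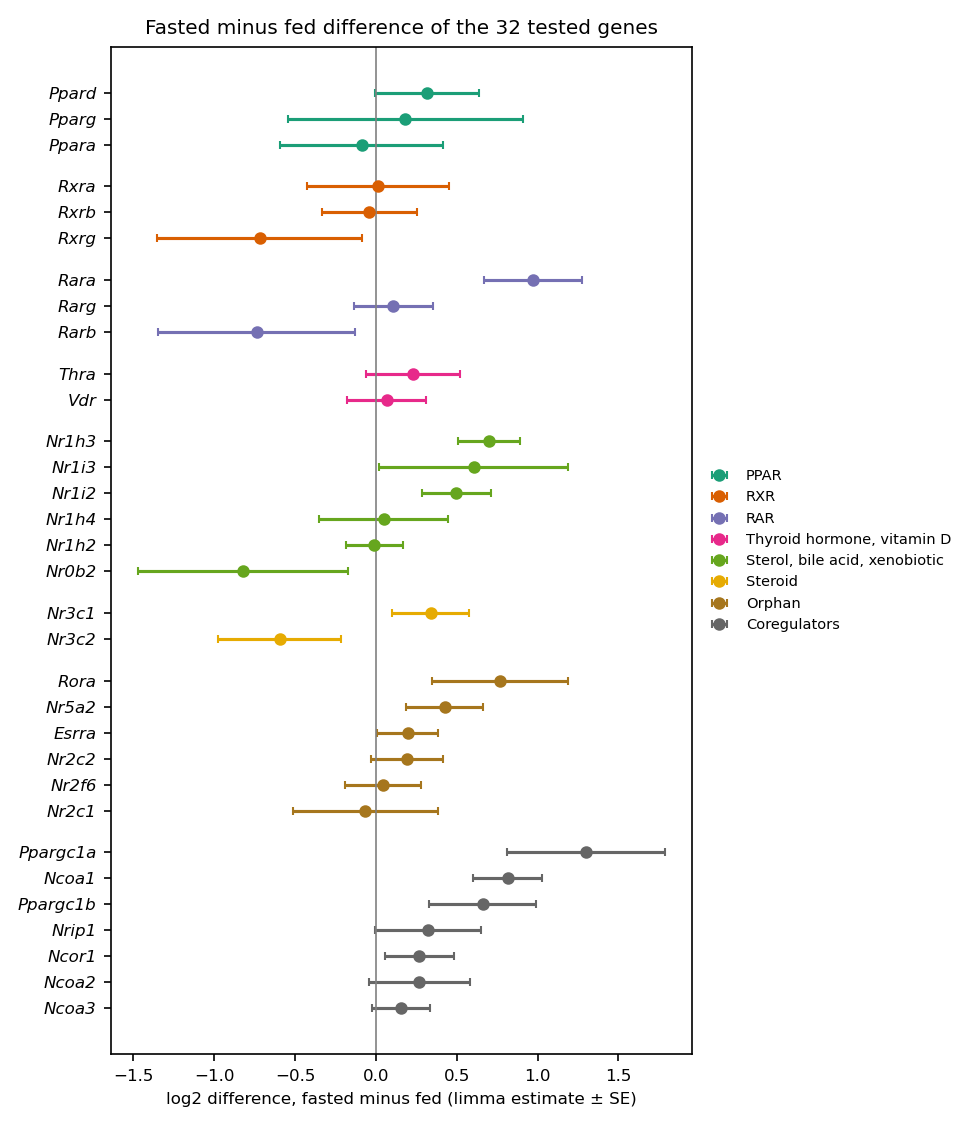
Fasted minus fed difference of the 32 tested nuclear receptor and coregulator genes on the log2 scale, ordered by class; points are limma estimates and bars are ± 1 SE over 4 fasted and 4 fed arrays. All 7 coregulators lie right of 0, from Ncoa3 at 0.16 to Ppargc1a at 1.30, as do the 2 genes of the thyroid hormone and vitamin D class. Every other class has genes on both sides.

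Every coregulator had the same sign. All 7 were higher in fasted crypts, with a median difference of 0.32, and 2 of the 7 had an unadjusted p under 0.05. The mean over the 7 genes ran from -0.38 to 0.08 on the fasted arrays and from -0.86 to -0.46 on the fed arrays, so the groups did not overlap in this summary. Enterocyte markers moved with it (14 of 14 higher in fasted crypts, median 1.14), and their part in the coregulator values was not tested. The 7 stayed on the fasted side in the fit without fasted array 3 (median 0.19) and without fed array 4 (0.37). In the fit without fed array 4, 1 of the 7 had an unadjusted p under 0.05, beside 5.23% of all genes.

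Ppargc1a encodes PGC-1α, the coactivator best known for switching on mitochondrial, fatty acid oxidation and gluconeogenic genes during fasting. It read -0.25, 0.54, -1.08 and -0.24 on fasted arrays 1 to 4 and -0.71, -2.34, -0.91 and -2.27 on fed arrays 1 to 4. The groups overlapped, since fasted array 3 lay below fed arrays 1 and 3, and fed arrays 2 and 4 were the lowest of the 8. The difference was 1.30 (SE 0.49), or 2.47-fold, the largest among the tested members, and its adjusted p in limma was 0.787. A second probe differed by 1.39 but only 2 fasted arrays and 0 fed arrays had it clear of background. The probe used lies on chromosome 5 from 51848928 to 51848987 in the mm9 build.

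Ncoa1 encodes SRC-1, a coactivator that acetylates histones and binds many liganded receptors. It read -0.23, -0.22, -0.46 and -0.17 on fasted arrays 1 to 4 and -0.97, -0.86, -1.30 and -1.20 on fed arrays 1 to 4. The groups did not overlap, with fasted array 3 and fed array 2 the nearest to each other. The difference of 0.81 (SE 0.21), or 1.76-fold, had the smallest unadjusted p among the members and ranked 105 of 19452 genes, yet the adjusted p was 0.787. Its probe is split over 4249868 to 4253693 of chromosome 12 (mm9), and a second, dimmer probe differed by 0.55.

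Ppargc1b encodes PGC-1β, a relative of PGC-1α that also coactivates ERRα. It read -0.60, -1.21, -0.51 and -1.45 on fasted arrays 1 to 4 and -1.27, -1.51, -2.19 and -1.45 on fed arrays 1 to 4. The overlap came from fasted array 4, which was level with fed array 4 and below fed array 1, and the difference was 0.66 (SE 0.33). The other coregulators differed less. Nrip1, encoding the corepressor RIP140, differed by 0.32 (SE 0.33), Ncor1 by 0.27 (SE 0.21), Ncoa2 by 0.27 (SE 0.31) and Ncoa3 by 0.16 (SE 0.18). Probes of 1 gene did not always agree. The 4 Ncor1 probes past the filter differed by 0.27, 0.75, -0.92 and 0.95. The last was detected on 4 fasted and 0 fed arrays, so it passed the filter through the fasted arrays alone. On these arrays its fasted mean was 1.45-fold or more above its fed mean (limma, adjusted p = 0.739 among all probes). For this bound, each fed array entered with its own signal or its detection limit, whichever was larger, the limit being the lowest signal among detected probes. The second Ncoa3 probe differed by -0.14 against 0.16 for the first.

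Promoter sequence is shown for the coactivator with the largest difference. RefSeq windows of 250 bases before a transcript start (GRCm38.p6) were available for 33 of the 38 members, as 53 windows out of 32851 for 27025 genes. The 5 bases TGACG, the first part of the cyclic AMP response element TGACGTCA that CREB binds, were searched on both strands. They occurred in 1 or more windows of 8 members, Ppargc1a and Rara among them, against 17.8% of all windows and 19.8% of all genes. The full element occurred in 0 members and 1.55% of windows. The Ppargc1a window below lies at chr5:51567726-51567975 on the minus strand and is written 5′ to 3′ along the gene. Capitals mark TGACG read from the opposite strand, 49 to 45 bases before the start.
Ppargc1a: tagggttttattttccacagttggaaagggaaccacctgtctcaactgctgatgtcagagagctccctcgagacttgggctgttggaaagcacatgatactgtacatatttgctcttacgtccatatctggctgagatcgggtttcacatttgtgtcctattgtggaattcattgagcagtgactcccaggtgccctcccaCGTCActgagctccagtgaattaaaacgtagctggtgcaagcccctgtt
A match is a string of letters and not a measured binding site. The array probes lie far downstream, and the start used in these crypts was not tested.

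Receptors for sterols, bile acids and foreign chemicals gave 4 of 6 higher values in fasted crypts and a median difference of 0.27. Nr1h3 encodes LXRα, the oxysterol receptor that induces cholesterol export. It read 2.69, 2.54, 2.35 and 1.85 on fasted arrays 1 to 4 and 2.05, 1.67, 1.44 and 1.47 on fed arrays 1 to 4. Fasted array 4 lay below fed array 1, and the other fasted arrays lay above all fed arrays. The difference was 0.70 (SE 0.19), or 1.62-fold, with an adjusted limma p of 0.787, and the second probe differed by 0.42. The probe used lies on chromosome 2 from 91024250 to 91024309 (mm9). Nr1h2, encoding the broadly expressed LXRβ, differed by -0.0092 (SE 0.17).

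Nr1i2 encodes PXR, which induces drug-metabolising enzymes and transporters. It read 0.32, 0.67, -0.02 and 0.10 on fasted arrays 1 to 4 and -0.04, -0.31, -0.29 and -0.28 on fed arrays 1 to 4. The groups touched but did not overlap, with fasted array 3 just above fed array 1. The difference was 0.50 (SE 0.21), or 1.41-fold (adjusted p = 0.787), and of the 25 alternative fits 12 kept its unadjusted p under 0.05. The probe lies on chromosome 16 from 38248745 to 38248804 (mm9). Nr1i3, encoding the related receptor CAR, differed by 0.60 (SE 0.58) on its brightest probe and by 1.52 on a second one.

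The bile acid axis showed no shared direction in its receptors. Nr1h4 encodes FXR, the bile acid receptor. It read 1.68, 2.28, 2.47 and 2.01 on fasted arrays 1 to 4 and 0.84, 2.78, 2.46 and 2.18 on fed arrays 1 to 4, a difference of 0.05 (SE 0.40). The groups overlapped throughout, with fed arrays both lowest and highest. Nr0b2 encodes SHP, a receptor without a DNA-binding domain that FXR induces and that represses other receptors. It read -3.06, -3.01, -5.25 and -2.16 on fasted arrays 1 to 4 and -2.73, -2.16, -2.95 and -2.34 on fed arrays 1 to 4. The difference of -0.82 (SE 0.65) rested on fasted array 3, where the probe was not well above background, and was -0.16 without that array.

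**Figure D2:**
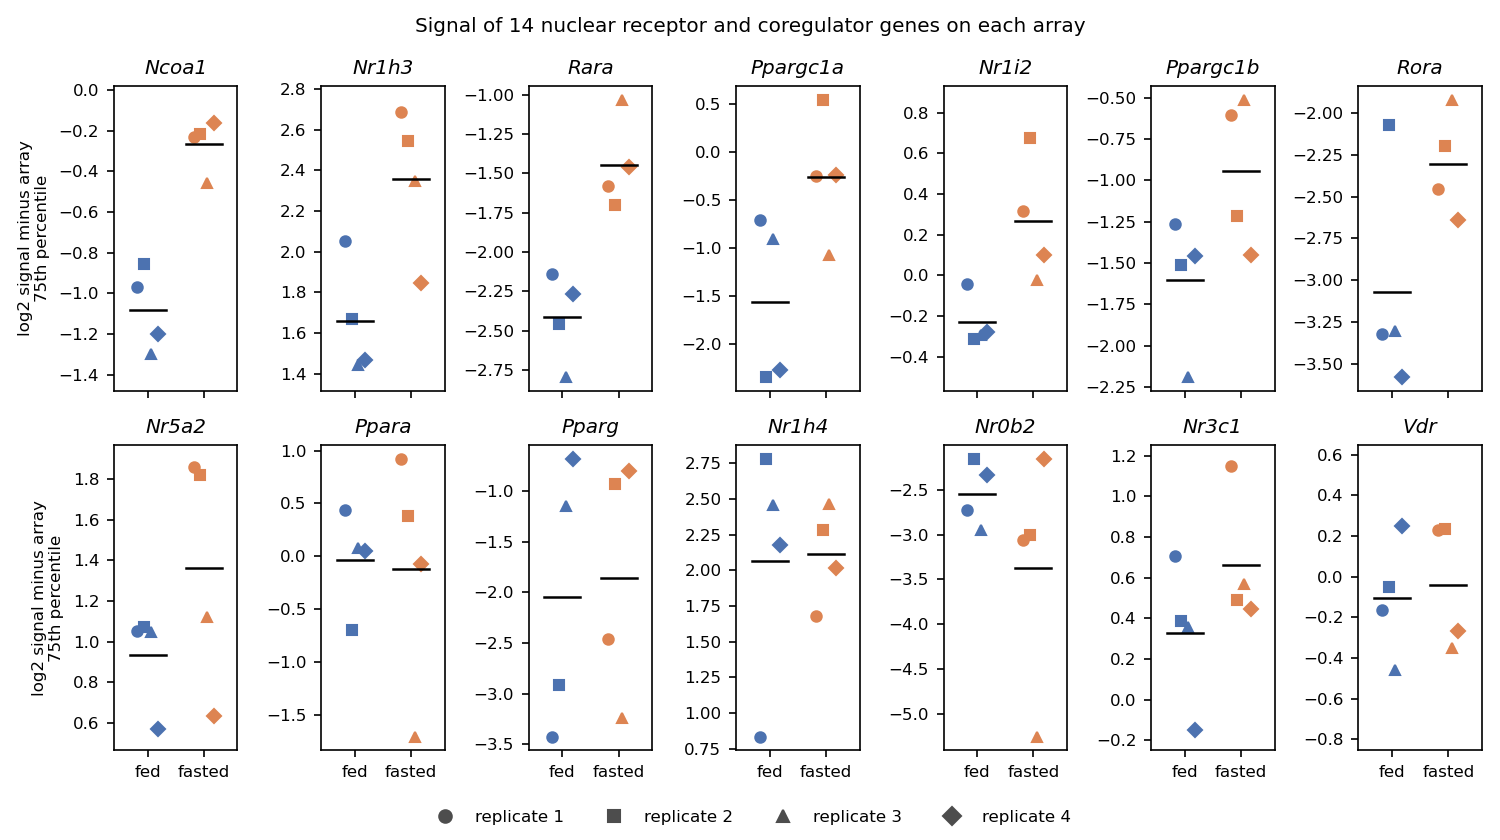
Signal of the 14 members given array by array (log2 signal minus the array's 75th percentile), fed arrays left and fasted arrays right in each panel. Symbols give replicate numbers, which were not treated as pairs of mice. Lines are group means (n = 4), and each panel has its own vertical range. Ncoa1, Rara and Nr1i2 separate the groups. Fasted replicate 3 is the lowest fasted array for Ppargc1a, Ncoa1, Nr1i2, Nr0b2, Ppara, Pparg and Vdr. It is the highest for Rara, Ppargc1b, Rora and Nr1h4.

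The PPARs, receptors for fatty acids and their derivatives, showed no difference beyond their spread. Ppara, the main regulator of fatty acid oxidation in fasting, read 0.92, 0.38, -1.71 and -0.08 on fasted arrays 1 to 4 and 0.43, -0.70, 0.08 and 0.05 on fed arrays 1 to 4. Fasted array 1 was the highest and fasted array 3 the lowest of the 8. The difference was -0.09 (SE 0.50), it was 0.41 without fasted array 3, and the second probe differed by 0.66, so its direction is not settled. Pparg, known best from fat cells and also expressed in gut epithelium, read -2.47, -0.93, -3.24 and -0.81 on fasted arrays 1 to 4 and -3.42, -2.92, -1.15 and -0.69 on fed arrays 1 to 4. Its arrays spread widely in both groups, and the difference was 0.18 (SE 0.73). Ppard, the PPAR known for broad expression in the crypt, differed by 0.32 (SE 0.32). The retinoid X receptors, the shared partners, lay at 0.013 (SE 0.44) for Rxra, -0.04 (SE 0.29) for Rxrb and -0.72 (SE 0.63) for Rxrg. The Rxrg value was 0.0085 without fasted array 3.

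The retinoic acid receptors differed among themselves. Rara read -1.58, -1.70, -1.03 and -1.46 on fasted arrays 1 to 4 and -2.14, -2.46, -2.80 and -2.27 on fed arrays 1 to 4. Every fasted array lay above every fed array, with fasted array 2 and fed array 1 the nearest. The difference was 0.97 (SE 0.30), or 1.96-fold (adjusted p = 0.787), and a second probe gave 1.03. The probe used lies on chromosome 11 from 98835350 to 98835409 (mm9). Rarg, the receptor prominent in squamous epithelia, differed by 0.11 (SE 0.24). Rarb, itself a classic retinoic acid target, differed the other way by -0.74 (SE 0.61), with values of 0.36, 1.73, -1.01 and 1.22 on fasted arrays 1 to 4 and 0.76, 0.74, 2.05 and 1.70 on fed arrays 1 to 4. The groups overlapped, fasted array 3 was the lowest, and the difference was -0.08 without it. A second Rarb probe differed by -0.50.

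Rarb was the only member with the retinoic acid element searched for. That element is the one known from the Rarb promoter, so the match was given in advance. The element, GGTTCA and AGTTCA in direct repeat with 5 bases between them, was searched on both strands and occurred in 2 of 32851 windows (0.006%). It does not contain the half-site AGGTCA, which occurred in 8 of 33 members and 15.8% of genes. Direct repeats of AGGTCA with 1 base between (bound by PPAR with RXR) or with 4 bases between (bound by LXR or thyroid hormone receptor with RXR) contain that half-site. They occurred in 0 members, and in 11 and 5 of all windows. The Rarb window lies at chr14:16575477-16575726 on the minus strand (GRCm38.p6). Capitals mark the element, 53 to 37 bases before the start.
Rarb: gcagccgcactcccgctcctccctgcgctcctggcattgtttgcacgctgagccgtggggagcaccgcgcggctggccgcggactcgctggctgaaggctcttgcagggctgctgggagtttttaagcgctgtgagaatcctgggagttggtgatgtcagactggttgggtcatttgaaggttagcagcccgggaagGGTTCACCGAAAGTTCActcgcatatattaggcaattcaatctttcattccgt
The match describes the sequence only. The Rarb difference set beside it did not pass adjustment (limma, adjusted p = 0.794). The Rarb probe used lies on chromosome 14 from 17651424 to 17651483, and the second from 17264648 to 17264707 (both mm9). Window and probes are placed in different builds. Whether the probe used reads a transcript from the start shown was not tested.

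None of the hormone receptors passed the test. Thra, the thyroid hormone receptor that dominates in gut epithelium, differed by 0.23 (SE 0.29), and its second probe by -0.09. Vdr, the vitamin D receptor, read 0.23, 0.23, -0.35 and -0.27 on fasted arrays 1 to 4 and -0.17, -0.05, -0.46 and 0.25 on fed arrays 1 to 4. The groups overlapped, with fed arrays holding both the highest and the lowest value, and the difference was 0.07 (SE 0.25). Nr3c1, the glucocorticoid receptor, read 1.15, 0.49, 0.57 and 0.45 on fasted arrays 1 to 4 and 0.71, 0.39, 0.36 and -0.15 on fed arrays 1 to 4. Fed array 1 lay above 3 of the fasted arrays, and the difference was 0.34 (SE 0.24). A second, dim Nr3c1 probe differed by 1.70 and was detected on all 4 fasted arrays but on 1 fed array. With the probes averaged the Nr3c1 difference was 1.02 (adjusted p = 0.772 in limma). Nr3c2, the mineralocorticoid receptor, differed by -0.59 (SE 0.38), and by -0.21 without fasted array 3, which was its lowest array at -2.69.

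Among the orphan receptors, those without a settled natural ligand, 5 of 6 tested were higher in fasted crypts with a median of 0.19. Rora, which takes part in the circadian clock and lipid metabolism, read -2.46, -2.19, -1.92 and -2.64 on fasted arrays 1 to 4 and -3.32, -2.07, -3.31 and -3.58 on fed arrays 1 to 4. Fed array 2 stood among the fasted values and the other fed arrays lay below them, for a difference of 0.77 (SE 0.42). Nr5a2 encodes LRH-1, known for promoting crypt cell renewal and local glucocorticoid synthesis. It read 1.86, 1.82, 1.12 and 0.64 on fasted arrays 1 to 4 and 1.05, 1.07, 1.05 and 0.57 on fed arrays 1 to 4. Fasted array 4 lay below 3 fed arrays and the rest of the fasted arrays above all of them, for a difference of 0.43 (SE 0.24). Esrra, the PGC-1 partner of mitochondrial genes, differed by 0.20 (SE 0.19), Nr2c2 by 0.19 (SE 0.22), Nr2f6 by 0.04 (SE 0.23) and Nr2c1 by -0.07 (SE 0.45).

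The 6 remaining members were not tested because each of their probes was well above background on too few arrays. Nr2f1 and Nr2f2, which encode the COUP-TF receptors, and Nr6a1, the germ cell nuclear factor, were above background on 0 arrays with any probe. By its brightest probe, Thrb was above background on 1 fasted and 0 fed arrays, and Esr1, the oestrogen receptor, and Esrrg on 1 array in each group. A dimmer probe of Thrb and 1 of Esr1 were each above background on 2 fasted and 0 fed arrays. Of the 32 tested members 27 were well above background on all 8 arrays, so none was tested through its signal in 1 group alone.

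Arrays of a shared slide were also compared directly. The pair of fasted 2 with fed 3 sets a male beside a female by label, and fed 4 has the doubted label, so sex and feeding are mixed in these pairs and in the slide block, which leaves out sex. Of the tested members 13 were higher in the fasted array of all 3 shared slides, against 17.9% of all genes, and 2 were lower in all 3 (Rarb and Rxrg), against 21.8%. The members' median difference was 0.45 for fasted 1 over fed 1, 0.13 for fasted 2 over fed 3 and 0.07 for fasted 4 over fed 4. Ncoa1 differed by 0.74, 1.08 and 1.04 in that order of slides, Rara by 0.56, 1.1 and 0.81, and Rora by 0.87, 1.11 and 0.94. Ppargc1a differed by 0.45, 1.45 and 2.04, Nr1h3 by 0.64, 1.1 and 0.38 and Nr1i2 by 0.36, 0.97 and 0.38. Slide then replaced sex in the model. Fasted array 3 and fed array 2 each sit alone on a slide, so the differences in this fit rest on the same 3 pairs. In it 8 members had an unadjusted p under 0.05, beside 13.0% of all genes, and still 0 passed adjustment. Their differences included 0.95 for Ncoa1, 1.31 for Ppargc1a, 0.97 for Rora, 0.55 for Nr5a2 and -0.40 for Rarb.

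**Figure D3:**
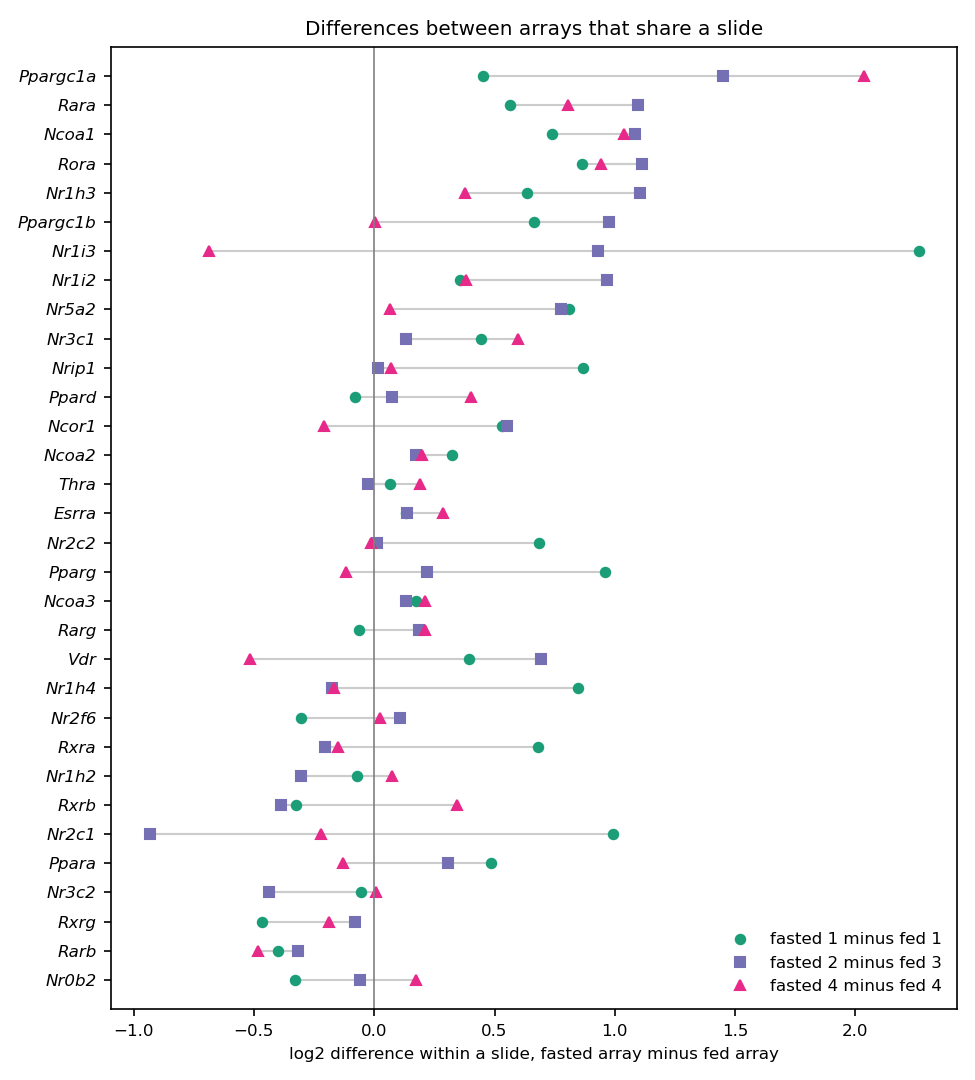
Fasted minus fed difference of each tested member between the 2 arrays of each shared slide, on the log2 scale, ordered by the fitted difference; each symbol is 1 slide and grey lines join a gene's lowest and highest slide. All 3 symbols of Rara, Ncoa1, Rora and Ppargc1a lie right of 0.45 or at it, whereas those of Nr1i3 and Nr2c1 fall on both sides of 0.

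Target genes of these receptors are set beside them, from lists of textbook targets. Like the members and the markers, these lists were chosen with earlier results of these data known, so their counts are descriptions only. PPAR targets, mostly enzymes of fatty acid oxidation, were the longest list: 21 of 24 tested were higher in fasted crypts, 13 had an unadjusted p under 0.05 (5.97% of all genes did), all of them higher, and the median was 0.64. Ech1 and Acaa2, both enzymes of β-oxidation, differed by 1.03 (SE 0.21) and 1.25 (SE 0.28), with every fasted array above every fed array. Ehhadh, a peroxisomal β-oxidation enzyme, differed by 1.18 (SE 0.30). The list's count was 7 without fasted array 1 (beside 2.32% of all genes) and 7 with each array centred on its median (4.60%). It was 10 without fasted array 3 and fed array 4 together (8.99%). Within the shared slides the list's median was 0.51, 0.74 and 0.43. Ppara itself, in contrast, had no settled direction.

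LXR targets were higher for 8 of 10 tested, with 2 at an unadjusted p under 0.05 and a median of 0.37. The rest of the 13 listed were too dim to test. Abca1 was above background on 2 fasted and 0 fed arrays, and Abcg1 and Scd1 on 0 arrays. Lpcat3, which remodels membrane phospholipids, differed by 0.76 (SE 0.24), Abcg5, a sterol exporter, by 1.01 (SE 0.40), and the desaturase Scd2, detected on 3 fasted arrays and 1 fed array, by 1.62 (SE 0.86). Of 3 FXR targets tested (median 1.38), Slc51b and Slc51a, the basolateral bile acid exporter subunits, differed by 2.42 (SE 0.64) and 1.38 (SE 0.46) with no overlap between groups. The ileal bile acid binding protein gene Fabp6 lay the other way at -0.38 (SE 0.26). PXR and CAR targets were higher for 6 of 7 (median 0.47), with the esterase gene Ces2a at 1.34 (SE 0.45), Por, the electron donor of cytochromes P450, at 0.54 (SE 0.20) and Cyp2b10 at 0.72 (SE 0.45).

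Retinoic acid targets were higher for 5 of 7 tested with a median of 0.23. Cyp26a1 and Lrat were above background on 0 arrays and were not tested. Isx, a retinoic acid induced repressor of vitamin A uptake, differed by 0.84 (SE 0.22), and its fasted values of 2.62, 2.47, 2.45 and 1.96 all lay above its fed values of 1.83, 1.25, 1.31 and 1.74. Cyp26b1, which degrades retinoic acid, differed by 1.95 (SE 0.56), again without overlap. Stra6, which carries retinol into cells, was at -0.62 (SE 0.37). Crabp2, a retinoic acid binding protein gene, was the lowest of the list at -1.29 (SE 1.09). In all, 0 of the 7 targets passed adjustment in limma.

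Other target lists leaned weakly or the other way, and in none did a gene have an adjusted p under 0.05. Targets of ERR and PGC-1, mainly mitochondrial enzymes, were higher for 9 of 15 with a median of 0.07 and 0 at an unadjusted p under 0.05, although both PGC-1 genes read higher. The first 3 by p were Idh3a at 0.65, Cox5b at -0.37 and Nrf1 at 0.33. Glucocorticoid targets were lower for 10 of 13 (median -0.22, 0 at an unadjusted p under 0.05), led by Zbtb16 at -1.58, Dusp1 at -0.57 and Glul at -0.43. Thyroid hormone targets were lower for 4 of 4 (median -0.36, 0 at that threshold), with Dio1 at -0.52. Vitamin D targets were lower for 4 of 5 (median -0.60, 0 at that threshold), but the calcium-binding S100g was at 1.91, detected on all 4 fasted arrays but on 1 fed array. Without fasted array 3 the vitamin D median was -0.025, and within the shared slides it was -0.53, -0.15 and 0.03. The ERR and PGC-1 median was -0.0079 without that array. The LRH-1 targets Ccne1 and Scarb1 were at 0.56 and 0.49.

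Receptors and coregulators outside the set served as a family background. Of 11 other nuclear receptors tested, fasted crypts had higher values for 5 and lower for 6 (median -0.10). Nr4a2, an immediate early gene, was at -1.41 (SE 0.56), Hnf4a, a master regulator of gut epithelium, at 0.26 (SE 0.16) and Hnf4g at 1.17 (SE 0.80). Of 18 other coregulators, 8 were on the fasted side and 10 on the fed side (median -0.04), beside 7 of 7 for the coregulators of the set. Gps2, a subunit of the NCOR complex, was at -1.19 (SE 0.50) with fasted array 2 left out by its spot flag, Ncoa4 at 0.64 (SE 0.33) and the acetyltransferase gene Crebbp at -0.29 (SE 0.18). The median of the other receptors was 0.11 without fasted array 1 and 0.12 without fed array 4, and that of the other coregulators was 0.014, 0.018 and 0.029 without fasted array 1, fasted array 2 and fed array 1. The difference between these lists was not tested.

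**Figure D4:**
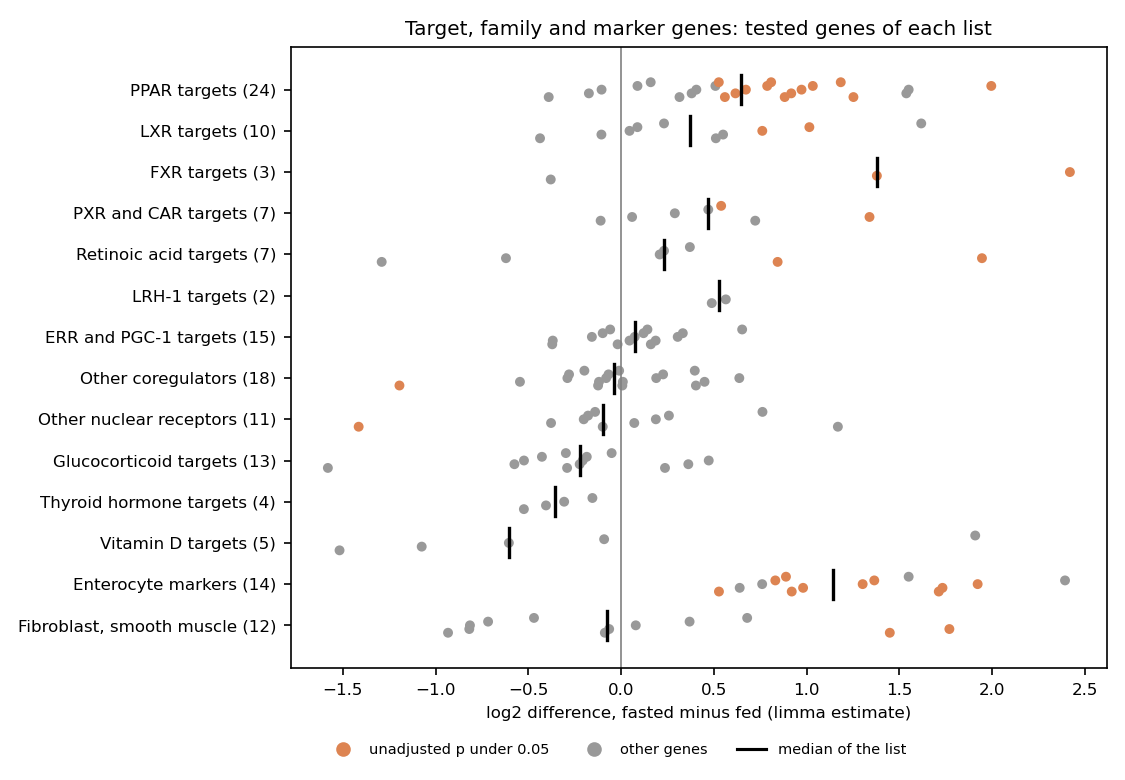
Fasted minus fed difference (log2, limma estimate) of every tested gene of the target, family and marker lists, with the number tested in brackets; orange points had an unadjusted p under 0.05 and black bars are list medians. PPAR targets and enterocyte markers lie mostly right of 0, at medians of 0.64 and 1.14, and glucocorticoid, thyroid hormone and vitamin D targets mostly left.

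Markers of absorptive enterocytes moved with these lists. All 14 markers tested were higher in fasted crypts, 10 of them at an unadjusted p under 0.05, with a median of 1.14, and their summed level on the log2 scale was 6.52 to 7.53 on the fasted arrays and 5.41 to 6.32 on the fed arrays. Fabp1 belongs to both the enterocyte and the PPAR target list. In bulk tissue, more cells of a type and more RNA in each cell cannot be told apart, and the part of enterocyte RNA in the differences of Ncoa1, Nr1h3, Nr1i2, Rara, Ppargc1a and the target genes was not tested. Paneth markers were lower for 7 of 8 (median -0.42), with a summed level of 8.49 to 8.66 against 8.74 to 9.25. Stem cell markers had a median of -0.02. Fibroblast and smooth muscle markers had a median of -0.08 and summed levels of 5.38 to 6.44 on the fasted and 4.99 to 7.10 on the fed arrays. Of these 12, Pdgfrb and Pdgfra had the highest differences, but Pdgfrb was detected on 4 fasted and 2 fed arrays, and Pdgfra on 4 and 0, so that it entered the test through the fasted arrays alone. All markers of goblet, enteroendocrine and tuft cells were tested, and their medians were -0.13, 0.18 and 0.08. Single arrays set the sign of several of these medians. The enteroendocrine one was -0.24 without fasted array 3 and -0.12 without fed array 4, and the tuft one was -0.38, -0.54 and -0.25 without fasted array 1, fed array 2 and fed array 3. The stem cell median was 0.17 without fasted array 2 and 0.26 without fed array 1, and the fibroblast and smooth muscle median was 0.07 and 0.08 without fasted array 2 and fed array 3. Endothelial and leukocyte markers lay at -0.20 and -0.29.

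Whether the difference depended on labelled sex was asked with an interaction term. In limma 0 of 19447 genes passed adjustment (0%) and the smallest adjusted p was 0.758, with 3.17% of genes at an unadjusted p under 0.05. Nr1i3 had the smallest unadjusted p among the members, with a male minus female contrast of 2.48 (SE 0.84, adjusted p = 0.758). Each combination of feeding and sex holds 2 mice by label, the label of fed array 4 is in doubt, and that of fed array 1 could not be checked. Leaving out an array leaves 1 mouse in a combination of feeding and sex. Without fasted array 4 that mouse is fasted array 3, the array least like the rest, so sex and that array cannot be told apart. The count of 0 did not hold in that fit or in the fit without fed array 2.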

How the data were processed

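Per the labels' protocols, Cy5-labelled cDNA from laser-captured, Methacarn-fixed lower crypts was hybridised to single-colour Agilent mouse arrays, 1 for each mouse. Per the file headers and the submitters' processing notes, Agilent Feature Extraction 11.5.1.1 made the deposited scanner files, whose background-subtracted spot intensity is linear. Log2 values in the authors' deposited matrix had column medians of 7.73 to 8.33 and ranked probes like the processed signal (Spearman correlation of 0.999 or more on each array). The scaling and centring of that matrix are unknown. Probe positions are the files' own, in mm9; exon and UTR annotation of that build was not used here.

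Control spots and spots flagged as outliers were left out, which cost 2 to 146 of 39429 probes an array, and no probe was saturated. Spots of a probe were averaged. Values are log2 processed signal minus the array's 75th percentile. Probes were kept if 4 or more of the 8 arrays read well above background, and the brightest stood for a gene name. Of the members' 67 probes, 62 had an accession in the RefSeq table, all with the same symbol. Genes were tested with limma 3.58.1 in R 4.3.3 (lmFit, eBayes with a mean trend; group and labelled sex as terms) at a Benjamini-Hochberg threshold of 0.05, after the code was tested on simulated data. No pair of arrays held identical values. The labels give 1 mouse per array and do not say whether mice shared a litter.

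The members, target lists and markers were chosen with earlier results of these data known. By rule, the 8 members with the smallest unadjusted p and Ppara, Pparg, Ppargc1a, Nr1h4, Nr0b2, Nr3c1, Nr5a2 and Vdr are given array by array, and up to 3 genes by smallest p from each target list. Rarb, Crabp2, Pdgfra and Pdgfrb were added after their values were seen. Alternatives covered scaling, normexp (offset of 50), the matrix just named, filters, probe rules, covariates, slide or replicate number as a block, variance models and leaving out arrays. Slide was read from the files. RefSeq promoter sequences are of assembly GRCm38.p6.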

Additional observations from a re-analysis of the deposited data

Results flagged for a closer look

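Among the 64 sets of 4 arrays examined (32 tested members in each feeding group), 2 held an array whose gap to its neighbours passed Dixon's critical value. Chance flags about 1 set in 20. Nr1i2 on fed array 1 was -0.0420, above the next fed array at -0.279, while the fed array at the far end was -0.311. Nr5a2 on fed array 4 was 0.570, below the other fed arrays at 1.05 to 1.07. Fed array 4 is also the array whose sex label is in doubt.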

How the results depend on the processing

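Over the 25 alternatives 0 genes passed adjustment in any, with the smallest adjusted p at 0.0624 when each array's percentage of detected probes was a covariate. The members' median difference stayed between 0.14 and 0.28, and 20 of 32 members kept their sign in every alternative. Members with an unadjusted p under 0.05 numbered 5 in the reported fit, beside 5.97% of all genes. There were 3 with arrays centred on their median (beside 4.60%) and 3 with normexp and quantile normalization (5.92%). With slide as a block there were 8 (7 higher and 1 lower, beside 13.0%). With the covariate there were 12 (8 higher and 4 lower in fasted crypts, beside 28.5%). They numbered 3 to 6 when 1 array was left out. The share of all genes then ran from 2.32% (without fasted array 1) to 10.6% (without fasted array 4). Fasted array 2 and fed array 4 gave the 3, and without fasted array 4 the 6 were 4 higher and 2 lower. For PPAR targets, whose alternatives were chosen after seeing the data, the count of 13 was 7 with median centring and ran from 7 (without fasted array 1) to 14 over left-out arrays. The interaction count ran from 0 to 2217 over left-out arrays, with 2217 without fasted array 4 and 1 without fed array 2. Ncoa1 kept an unadjusted p under 0.05 in 25 of 25 alternatives, Nr1h3 and Rara in 24 and Ppargc1a in 21.

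Of 347 values for the 14 members given array by array, 20 reversed. Ppara turned to 0.29 with the mean of its probes, 0.22 with slide as a block, 0.39 with array weights and 0.47 without fasted 3 and fed 4 together, and ran from -0.49 to 0.41 over left-out arrays. Pparg turned to -0.41 with the covariate and ran from -0.38 to 0.93 over left-out arrays. Nr1h4 turned to -0.0021 with the covariate, -0.32 with array weights and -0.031 without fasted 3 and fed 4 together. It ran from -0.36 to 0.41 over left-out arrays. Vdr turned to -0.0092 with the covariate and ran from -0.021 to 0.26 over left-out arrays. The cause was not tested.

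Replicate numbers were not treated as pairs of mice in the reported fit. Deviations of same-numbered arrays correlated at 0.37, -0.47, -0.45 and 0.61, which cannot show whether the mice were paired. Fasted and fed arrays on a shared slide correlated at 0.37, 0.54 and 0.61, and those on different slides at -0.51 to 0.50. The reported fit has no slide term. With the replicate block in place of sex, 0 genes passed and the members' median was 0.19. In that fit 4 members had an unadjusted p under 0.05, beside 5.70% of all genes. Probes near background and 4 arrays a group limit what could be detected.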
